A study of Sus scrofa with 6 samples.

Results

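The insulin-like growth factor (IGF) system was examined in the abdominal aorta of pigs fed normal chow (NC) or chow rich in fat, cholesterol and fructose (HFCF). The genes were taken by name: the ligands IGF1 and IGF2, the receptors IGF1R and IGF2R, and the binding proteins IGFBP2 to IGFBP7, 10 genes in all. Of these, 7 were listed under their own symbol among the 30477 genes with deposited values. IGF2 (ENSSSCG00000035293) and IGFBP6 (ENSSSCG00000000261) were listed under their identifiers, with descriptions that name them, so 9 genes were analysed. IGFBP3 was not analysed here.

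All pigs were male Wuzhishan miniature pigs, a small Chinese breed, and were fed for 6 months. The NC group (3 pigs) received plain chow, and the HFCF group (3 pigs) received chow with added shortening, egg yolk powder, cholesterol and fructose. The labels give an age of 3 to 4 months, and the methods give an older age at purchase. The sequenced pigs were a subset of the animals on each diet, each gave 1 library, and how they were chosen is not given in the sources used here.

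IGF1 and IGF2 are small secreted hormones related to insulin. Both bind IGF1R, a tyrosine kinase that activates the PI3K-AKT and MAP kinase relays and is known to favour survival, growth and migration of arterial smooth muscle. IGF2R carries no kinase. It takes IGF2 into the cell for breakdown and, as the cation-independent mannose 6-phosphate receptor, brings newly made hydrolases to lysosomes. Most IGF outside the cell is held by binding proteins, which prolong its life, keep it from the receptor, or release it when proteases cut them.

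The values are FPKM, fragment counts divided by exon length and by the number of mapped fragments, so levels of different genes can be compared per length. Differences were tested on log2(FPKM + 0.1) over 15384 genes with limma, a linear model that shares the estimate of spread across genes, and p-values were adjusted by the Benjamini-Hochberg method. On this scale 28.9% of all tested genes had an adjusted p under 0.05 (22.8% higher and 6.16% lower in the HFCF group), and the median over all of them was a log2 fold change of 0.32. Relative read depths, estimated from the smallest steps between low values, ran from 1 to 1.37 in the NC pigs and from 1.03 to 1.07 in the HFCF pigs. The 13 mitochondrial mRNAs took 4.55% to 6.78% of the summed FPKM in the NC pigs and 8.79% to 13.2% in the HFCF pigs, and their part in the results below was not tested. The smooth muscle gene ACTA2 stood at 3359 to 9145 FPKM in the 6 libraries. Hemoglobin HBB was far higher in the first HFCF pig (2846 FPKM) than in the other 5 pigs (21.3 to 174.5 FPKM).

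The type 1 receptor fell and the low ligand IGF1 rose in the HFCF group, while the other 7 genes did not pass the test. Thus 2 of the 9 genes were called, 1 in each direction, a share close to that of all tested genes. The same 2 genes met the fold and p thresholds stated in the methods (a ratio of group means over 2 or under 0.5, with p under 0.05 before adjustment), which 25.5% of all tested genes met (20.7% higher and 4.82% lower). The IGF1R call held in all 16 alternatives, but the IGF1 call in only 2 of 15. Without any one of the 3 NC pigs 1 of the 9 was called, which was IGF1R. All tested genes gave 2399, 2879 and 3513 calls in these fits, against 4453 in the main fit. The values of the groups did not overlap for the same 2 genes, against 48.2% of all tested genes, and the median of the 9 log2 fold changes was 0.29.

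**Figure D1:**
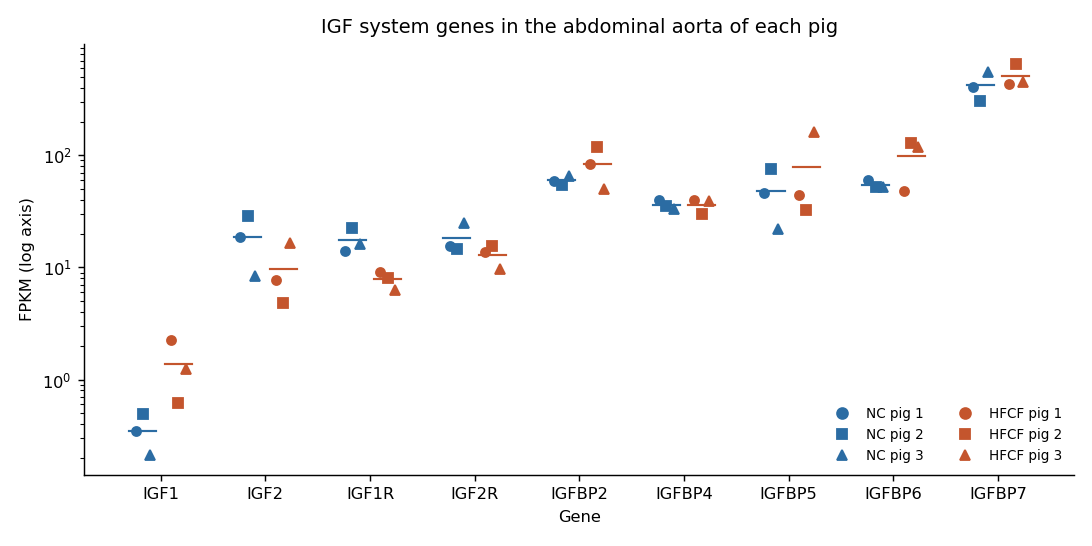
FPKM of each analysed IGF system gene (log axis) in the 3 NC pigs (blue) and the 3 HFCF pigs (orange), with a bar at each group mean and 1 symbol per pig number. IGFBP7 lies highest at 307 to 659 FPKM and IGF1 lowest at 0.211 to 2.26 FPKM, and the colours separate fully in IGF1 and IGF1R.

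Of the ligands, IGF2 was the main transcript in both groups. IGF2 had 18.5, 28.6 and 8.45 FPKM in the 3 NC pigs and 7.76, 4.84 and 16.4 FPKM in the 3 HFCF pigs. The groups overlapped, because the third HFCF pig lay above the third NC pig. The log2 fold change was -0.95 with a 95% interval from -2.25 to 0.36 (adjusted p = 0.238, limma).

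IGF1 (ENSSSCG00000000857) had 0.346, 0.488 and 0.211 FPKM in the NC pigs and 2.26, 0.616 and 1.24 FPKM in the HFCF pigs. Every HFCF pig lay above every NC pig, as was the case for 36.1% of all tested genes, although the second HFCF pig was close to the second NC pig. The ratio of group means was 3.94 and the log2 fold change was 1.60 (standard error 0.49, adjusted p = 0.0485, limma). This call held in only 2 of 15 alternatives, in which the adjusted p from limma ranged from 0.0312 to 0.157. It was lost without any one of the 3 NC pigs (adjusted p 0.125, 0.0753 and 0.128, limma), without the first HFCF pig (0.108) and without the third HFCF pig (0.104).

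The ratio of IGF2 to IGF1, taken within each library so that scaling between libraries cancels, was 53.6, 58.7 and 39.97 in the NC pigs. It was 3.43, 7.86 and 13.2 in the HFCF pigs. IGF2 thus exceeded IGF1 in all 6 pigs, and the highest HFCF ratio lay below the lowest NC ratio. The mean ratio was 7.06 times lower in the HFCF group on the log2 scale (a difference of -2.82), but the exact two-sided permutation p was 0.1, the smallest that 3 pigs against 3 allow, so a difference could not be shown at 0.05. Among single genes, 48.2% did not overlap between the groups.

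**Figure D2:**
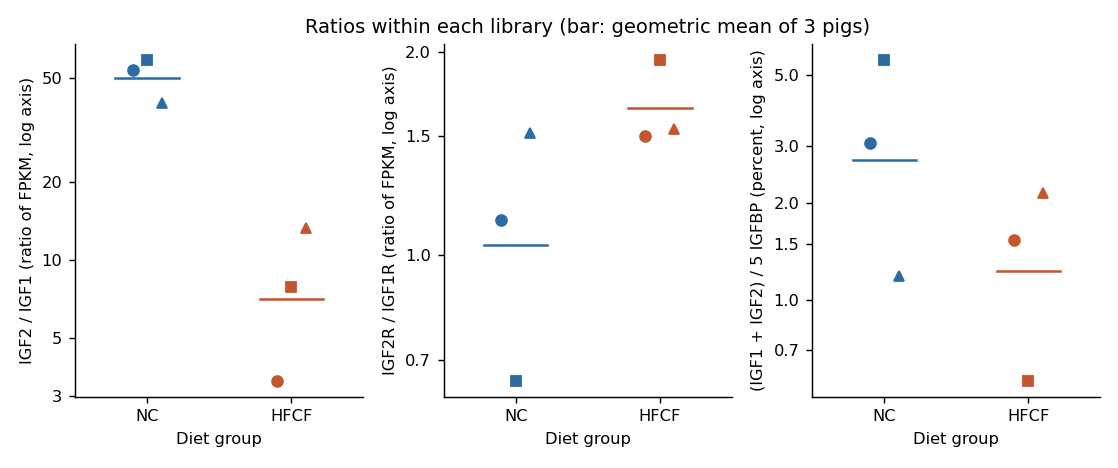
Ratios of FPKM within each library on log axes, for IGF2 over IGF1, for IGF2R over IGF1R, and for the sum of both ligands as a percent of the sum of the 5 analysed binding proteins; points are pigs (NC blue, HFCF orange) and bars are geometric means of 3 pigs. The groups are apart only in the first panel, with 39.97 to 58.7 in the NC group against 3.43 to 13.2 in the HFCF group.

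Macrophage markers and IGF1 were both higher in the HFCF group. All 7 markers on the macrophage list were called higher (100%, against 22.8% of all tested genes). Their summed level rose from between 28.1 and 28.3 FPKM in the NC pigs to between 297 and 714 FPKM in the HFCF pigs. No macrophage marker was at 0 in any library. The 6 lipid-laden macrophage markers summed to between 36.9 and 53.7 FPKM in the NC pigs and to between 435 and 991 FPKM in the HFCF pigs. IGF1 per 100 FPKM of CSF1R, the receptor that macrophages need to survive, was 2.50 to 4.97 FPKM in the NC pigs and 1.58 to 2.56 FPKM in the HFCF pigs, and these ranges overlapped. Of the 7 ratios of IGF1 to a macrophage marker, 3 overlapped between the groups and 4 were lower in every HFCF pig. IGF1 per 100 FPKM of CD68, one of these 4, was 3.73 to 11.9 FPKM in the NC pigs and 0.541 to 1.26 FPKM in the HFCF pigs. The part of macrophages in the IGF1 values was not tested. In bulk RNA, a change in the number of cells of a type and a change in RNA per cell cannot be told apart.

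IGF1R (ENSSSCG00000030560) had 13.9, 22.3 and 16.3 FPKM in the NC pigs and 9.19, 7.995 and 6.29 FPKM in the HFCF pigs. Every HFCF pig lay below every NC pig, as was the case for 12.1% of all tested genes. The mean fell from 17.5 ± 4.29 to 7.83 ± 1.46 FPKM (SD, n = 3 each), and the log2 fold change was -1.14 with a 95% interval from -1.68 to -0.60 (adjusted p = 0.0122, limma). Relative to the median of all tested genes its log2 fold change was -1.46. The call held in all 16 alternatives.

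IGF2R (ENSSSCG00000004044) had 15.7, 14.5 and 24.7 FPKM in the NC pigs and 13.8, 15.5 and 9.67 FPKM in the HFCF pigs. The groups overlapped, and the log2 fold change was -0.48 with a 95% interval from -1.10 to 0.15 (adjusted p = 0.217, limma). The ratio of IGF2R to IGF1R was 1.13, 0.651 and 1.51 in the NC pigs, against 1.501, 1.94 and 1.54 in the HFCF pigs. These ranges overlapped and the exact two-sided permutation p was 0.2, so that no difference between the receptors in their change was shown at this number of pigs.

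Contractile smooth muscle genes were lower together with IGF1R. Of the 6 smooth muscle markers, 4 were called (66.7%, against 28.9% of all tested genes). All 4 were lower in the HFCF group, as were 6.16% of all tested genes. The median log2 fold change of the 6 markers was -1.03, and none was at 0. Their summed level was 15145 to 21336 FPKM in the NC pigs and 7659 to 12401 FPKM in the HFCF pigs. IGF1R per 1000 FPKM of MYH11, the heavy chain of smooth muscle myosin, was 6.32, 12.1 and 7.63 FPKM in the NC pigs and 11.2, 8.65 and 5.19 FPKM in the HFCF pigs. Relative to MYH11 the groups therefore overlapped, and the mean log2 difference was -0.08. The ratios of IGF1R to each of the 6 smooth muscle markers all overlapped between the groups. Their mean log2 differences ran from -0.55 (TAGLN) to 0.22 (SMTN). These ratios were chosen after the values had been seen, and the part of smooth muscle content in the IGF1R values was not tested.

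**Figure D3:**
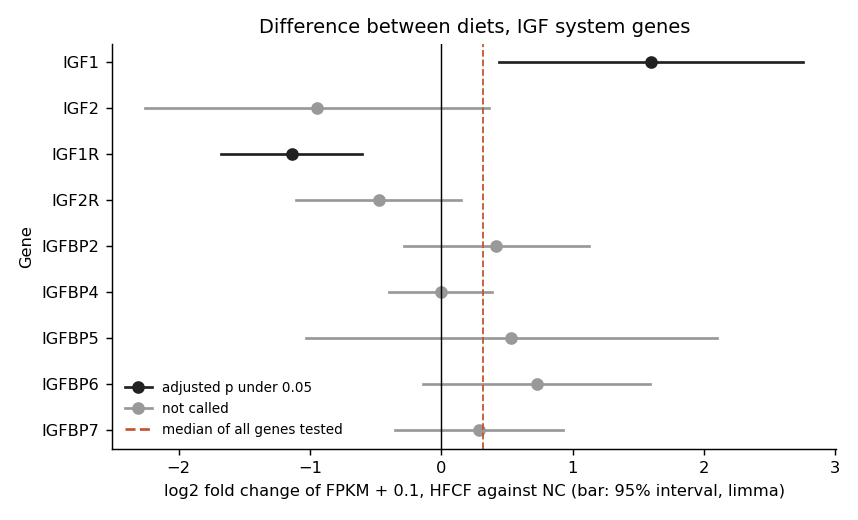
Log2 fold change of FPKM + 0.1 between HFCF and NC (x axis) with its 95% interval from limma for each analysed IGF system gene (y axis). IGF1 at 1.60 and IGF1R at -1.14 are called (black), the other genes are not (grey), and the dashed line marks the median of all tested genes at 0.32.

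The 5 analysed binding proteins did not pass the test. Their summed level was 616, 524 and 728 FPKM in the NC pigs and 649, 968 and 817 FPKM in the HFCF pigs, an overlap with an exact two-sided permutation p of 0.2. The ligands together equalled 3.07%, 5.55% and 1.19% of this sum in the NC pigs, against 1.54%, 0.564% and 2.16% in the HFCF pigs (exact two-sided permutation p = 0.3). At the level of mRNA, the summed binding proteins were thus in excess over the ligands in every pig. Most of that sum was IGFBP7, which binds IGF only weakly, so these percentages do not measure the excess of strong IGF binders.

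IGFBP7 (ENSSSCG00000008913), a matrix-bound protein that binds IGF only weakly, was the highest of the family. It had 411, 307 and 555 FPKM in the NC pigs and 433, 659 and 448 FPKM in the HFCF pigs. It made up 54.8% to 76.3% of the summed binding protein FPKM over the 6 pigs. Its log2 fold change of 0.29 (95% interval from -0.35 to 0.93, adjusted p = 0.458, limma) was close to the median of all genes and turned to -0.07 with median-ratio scaling and to -0.11 with quantile normalization.

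IGFBP6 (ENSSSCG00000000261), which prefers IGF2 to IGF1, had 60.2, 51.9 and 51.7 FPKM in the NC pigs and 47.8, 128 and 119.7 FPKM in the HFCF pigs. The second and the third HFCF pig lay above all NC pigs, and the first lay below all NC pigs. This gave a log2 fold change of 0.73 (95% interval from -0.14 to 1.59, adjusted p = 0.177, limma). Without the first HFCF pig it was 1.19 (adjusted p = 0.00563, limma).

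IGFBP2 (ENSSSCG00000035392), which can also signal through integrins, had 59.1, 54.3 and 65.9 FPKM in the NC pigs and 84.2, 119 and 50.5 FPKM in the HFCF pigs. The third HFCF pig was the lowest of all 6, and the other HFCF pigs were the highest. The log2 fold change was 0.42 (95% interval from -0.29 to 1.12, adjusted p = 0.326, limma), and without the third HFCF pig it was 0.75 (adjusted p = 0.0473, limma).

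IGFBP5 (ENSSSCG00000025924), which binds to extracellular matrix and can act as a store of IGF1 there, had 46.1, 75.6 and 21.9 FPKM in the NC pigs and 44.4, 32.6 and 159.9 FPKM in the HFCF pigs. The third HFCF pig stood far above the rest. Between the groups the log2 fold change was 0.53 with a 95% interval from -1.03 to 2.10 (adjusted p = 0.578, limma), and it was -0.16 without the third HFCF pig.

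IGFBP4 (ENSSSCG00000017472), mainly an inhibitor of IGF action until the protease PAPPA cuts it, had 39.9, 35.4 and 33.4 FPKM in the NC pigs and 40.1, 29.7 and 39.3 FPKM in the HFCF pigs. Its log2 fold change was -0.0038, with a 95% interval from -0.40 to 0.39 (adjusted p = 0.987, limma).

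Per length, IGFBP7 had the highest FPKM and IGF1 the lowest in both groups, each without overlap with its neighbour in the order of group means. In the NC group the order between them was IGFBP2, IGFBP6, IGFBP5, IGFBP4, IGF2, IGF2R and IGF1R. In the HFCF group IGFBP6 stood before IGFBP2, and IGF2R before IGF2. In both groups the ranges of neighbours among these 4 binding proteins overlapped, as did those of neighbours among the remaining 3 genes, and IGFBP4 lay apart from the gene after it.

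IGF2 and IGFBP5 ranked the pigs of each group in the same order. Both were highest in the second and lowest in the third NC pig, and highest in the third and lowest in the second HFCF pig. This order within both groups was found in 398 of the 15384 tested genes (2.59%). The pair was chosen for description among all pairs of the 9 genes after the values had been seen, so the match shows no link between them. IGFBP2 and IGF2R had the exact reverse order in both groups, which 430 tested genes (2.80%) had. In the pig genome IGFBP2 and IGFBP5 lie next to each other (RefSeq annotation of Sscrofa11.1), and they ranked these pigs in opposite order.

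Some markers of the outer wall had the same order, and most had not. Of the 5 adipocyte markers, PLIN1, LEP and CIDEC had the order of IGF2, as had PDGFRA and PI16 of the 7 fibroblast markers. The lipid droplet protein PLIN1 had 19.1, 33.3 and 0.669 FPKM in the NC pigs and 1.404, 0.245 and 4.46 FPKM in the HFCF pigs. The 5 adipocyte markers summed to 181, 284 and 36.9 FPKM in the NC pigs and to 98.6, 71.3 and 89.0 FPKM in the HFCF pigs, and none was at 0. Among the HFCF pigs this sum was highest in the first, unlike IGF2, but most of it was FABP4 (86.4, 65.7 and 71.8 FPKM). ADIPOQ had 4.08, 0.301 and 4.04 FPKM in these pigs, and PLIN1, LEP and CIDEC were highest in the third. The 7 fibroblast markers summed to 3964, 5134 and 2866 FPKM in the NC pigs and to 2884, 3414 and 4997 FPKM in the HFCF pigs. Of the 7, only LUM was called, higher in the HFCF group (14.3%, against 28.9% of all tested genes). The part of the outer wall taken with each piece of aorta in the values of IGF2 and IGFBP5 was not tested.

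The ratio of IGF2 to a fibroblast marker was lower in every HFCF pig than in the NC pigs for 4 of the 7 markers (PDGFRA, DCN, LUM and COL1A1) and overlapped for 3 (COL3A1, DPT and PI16). IGF2 per 100 FPKM of the matrix proteoglycan gene DCN was 5.35, 4.66 and 3.20 FPKM in the NC pigs and 2.33, 1.25 and 2.18 FPKM in the HFCF pigs. Per 100 FPKM of COL1A1 it was 0.990 to 1.57 FPKM in the NC pigs and 0.430 to 0.941 FPKM in the HFCF pigs. These ratios were chosen after the values had been seen, so they are given with no test. Of the 7 ratios of IGFBP5 to a fibroblast marker, 6 overlapped between the groups. One of these was the ratio to DCN (8.29 to 13.3 FPKM in the NC pigs and 8.41 to 21.2 FPKM in the HFCF pigs, per 100 FPKM). The ratio to PI16 was higher in every HFCF pig (26.5 to 53.3 FPKM in the NC pigs and 63.6 to 105 FPKM in the HFCF pigs).

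**Figure D4:**
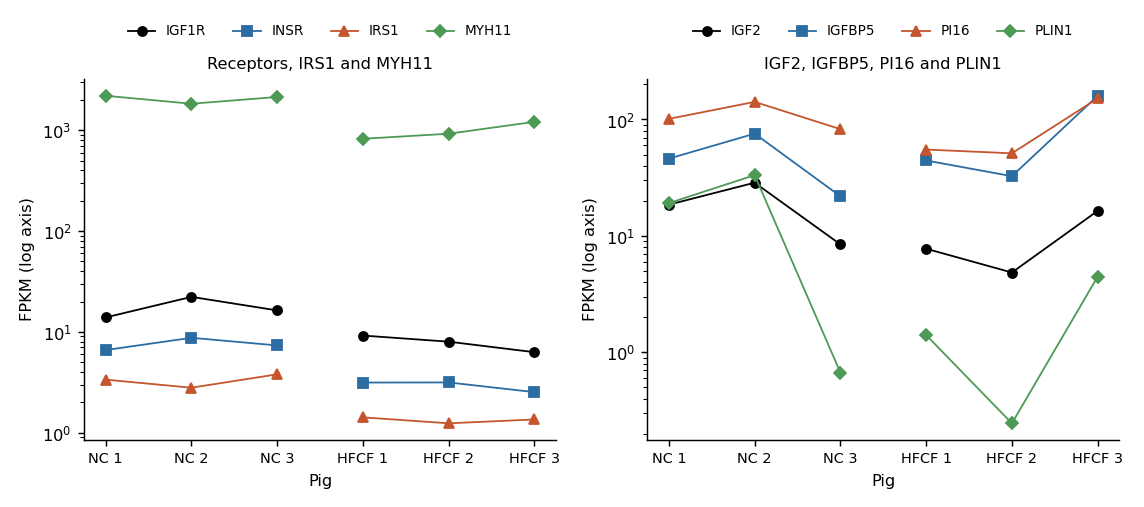
FPKM in each pig (log axis) of IGF1R, INSR, IRS1 and MYH11 (left) and of IGF2, IGFBP5, PI16 and PLIN1 (right); lines join pigs of 1 group only to guide the eye. The left-hand genes are all lower in every HFCF pig, and the right-hand genes peak in the second NC pig and the third HFCF pig. PI16 and PLIN1 were picked from the 2 of 7 fibroblast and 3 of 5 adipocyte markers with the order of IGF2, and the other markers did not have it.

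Of the other genes of the pathway, 79 were named in 8 lists, 69 could be tested, and 19 were called (15 higher and 4 lower in the HFCF group). This is 27.5% of the 69, near the 28.9% of all tested genes. The median log2 fold change of these 69 genes was 0.11, against 0.32 for all tested genes.

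The insulin receptor family and its adaptors held 3 called genes among 11 tested (27.3%, against 28.9% of all tested genes), all lower in the HFCF group, as were 6.16% of all tested genes. The list did not move in 1 direction. Without overlap between the groups, 5 of the 11 were lower and 3 (GRB2, SOS1 and SOS2) higher, against 12.1% and 36.1% of all tested genes. The insulin receptor INSR, which can form hybrid receptors with IGF1R, had 6.602, 8.74 and 7.34 FPKM in the NC pigs and 3.14, 3.15 and 2.53 FPKM in the HFCF pigs. Its change on the log2 scale was -1.33 ± 0.19 (standard error), with an adjusted p of 0.00413 from limma. IRS1, the docking protein that links both receptors to PI3K, had 3.36, 2.79 and 3.79 FPKM in the NC pigs and 1.42, 1.24 and 1.35 FPKM in the HFCF pigs. Its change on the log2 scale was -1.24 ± 0.21 (standard error), with an adjusted p of 0.00731 from limma. The highest HFCF value of INSR and of IRS1 lay below the lowest NC value, and both genes kept their calls in all 16 alternatives.

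Per 1000 FPKM of MYH11 the groups overlapped for INSR (3.00 to 4.76 FPKM in the NC pigs and 2.08 to 3.82 FPKM in the HFCF pigs) and for IRS1 (1.52 to 1.77 and 1.12 to 1.72 FPKM). The ratios of both genes to each of the 6 smooth muscle markers overlapped. Mean log2 differences ran from -0.76 (TAGLN) to 0.0086 (SMTN) for INSR and from -0.70 (TAGLN) to 0.07 (SMTN) for IRS1. These ratios were also chosen after the values had been seen, and the part of smooth muscle content was not tested. PTPN1, a phosphatase that removes the activating phosphates of the insulin receptor, fell from 15.7 ± 2.48 to 5.79 ± 3.29 FPKM (SD, n = 3 each, adjusted p = 0.0207, limma). Its call was lost with the block by replicate number (adjusted p = 0.052, limma) and without any one of the first and second NC and first and second HFCF pigs (adjusted p from 0.0589 to 0.0817, limma).

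The PI3K-AKT-FOXO-mTOR relay held 6 called genes among 18 tested, 5 higher and 1 lower in the HFCF group. This share of 33.3% is near the 28.9% of all tested genes. With median-ratio scaling 10 of the 18 were called, against 4000 of all 15384 tested genes, so the share was not near that of all genes there. RPS6KB1, the S6 kinase downstream of mTOR, rose from 2.60 ± 0.316 to 6.28 ± 0.447 FPKM (log2 fold change 1.25, adjusted p = 0.00427, limma). EIF4EBP1, a repressor of translation that mTOR inactivates, rose from 7.70 ± 1.56 to 19.7 ± 5.29 FPKM (adjusted p = 0.00887, limma). AKT2, the AKT isoform most tied to insulin action, fell from 32.6 ± 2.17 to 18.4 ± 2.15 FPKM (log2 fold change -0.82, adjusted p = 0.00778, limma). These 3 genes kept their calls in all 16 alternatives.

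Proteases that cut binding proteins were tested with their inhibitors, and 3 of 9 genes were called (33.3%, near the 28.9% of all tested genes), all higher in the HFCF group. ADAM28 had 0.0847, 0.0130 and 0.406 FPKM in the NC pigs and 16.7, 10.8 and 6.83 FPKM in the HFCF pigs. The log2 fold change was 5.63 and its standard error 0.59 (adjusted p = 0.00166, limma). Since the NC values lie near the pseudocount, the log2 fold change was 3.35 with a pseudocount of 1 and 6.79 with a pseudocount of 0.01. ADAM12 rose from 0.329 ± 0.0804 to 1.67 ± 0.623 FPKM and ADAM9 from 4.99 ± 1.24 to 12.4 ± 2.20 FPKM (adjusted p = 0.00744 and 0.00882, limma). The calls of these 3 proteases held in all 16 alternatives. PAPPA, the protease of IGFBP4, stayed between 0.103 and 0.298 FPKM in all 6 pigs (adjusted p = 0.713, limma). Its inhibitors STC1 and STC2 did not pass the test, and HTRA1, a serine protease, was highest of the list with 183 to 270.2 FPKM in the NC pigs and 288 to 357 FPKM in the HFCF pigs (adjusted p = 0.062, limma).

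Mannose 6-phosphate sorting, the other task of IGF2R, held 5 called genes among 11 tested (45.5%, against 28.9% of all tested genes), all higher in the HFCF group. GGA3, an adaptor that carries the receptors out of the Golgi, rose from 0.999 ± 0.1002 to 6.98 ± 1.27 FPKM (log2 fold change 2.68, adjusted p = 0.00082, limma). NAGPA, the enzyme that uncovers the mannose 6-phosphate tag, rose from 1.76 ± 0.301 to 5.75 ± 1.19 FPKM (log2 fold change 1.65, adjusted p = 0.00386, limma). GNPTG, a subunit of the enzyme that starts the tag, changed by 0.71 on the log2 scale (adjusted p = 0.0135, limma), which was 0.36 with median-ratio scaling and 0.45 after rescaling to TPM, both without a call. SNX2, part of the retromer that returns the receptor to the Golgi, changed by 0.84 on the log2 scale (adjusted p = 0.0282, limma), but its call was lost in 9 of 16 alternatives, among them those without the first or second NC pig or without any one of the 3 HFCF pigs (adjusted p from 0.0538 to 0.0735, limma). Of the 11 genes, 2 were called after rescaling to TPM, against 3756 of all 15384 tested genes. Without the first or second NC pig or the first or second HFCF pig, 3 were called. Over all tested genes these fits gave 2399, 2879, 3562 and 2936 calls, against 4453 in the main fit. M6PR, the smaller mannose 6-phosphate receptor, did not pass the test (log2 fold change 0.60, adjusted p = 0.101, limma).

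**Figure D5:**
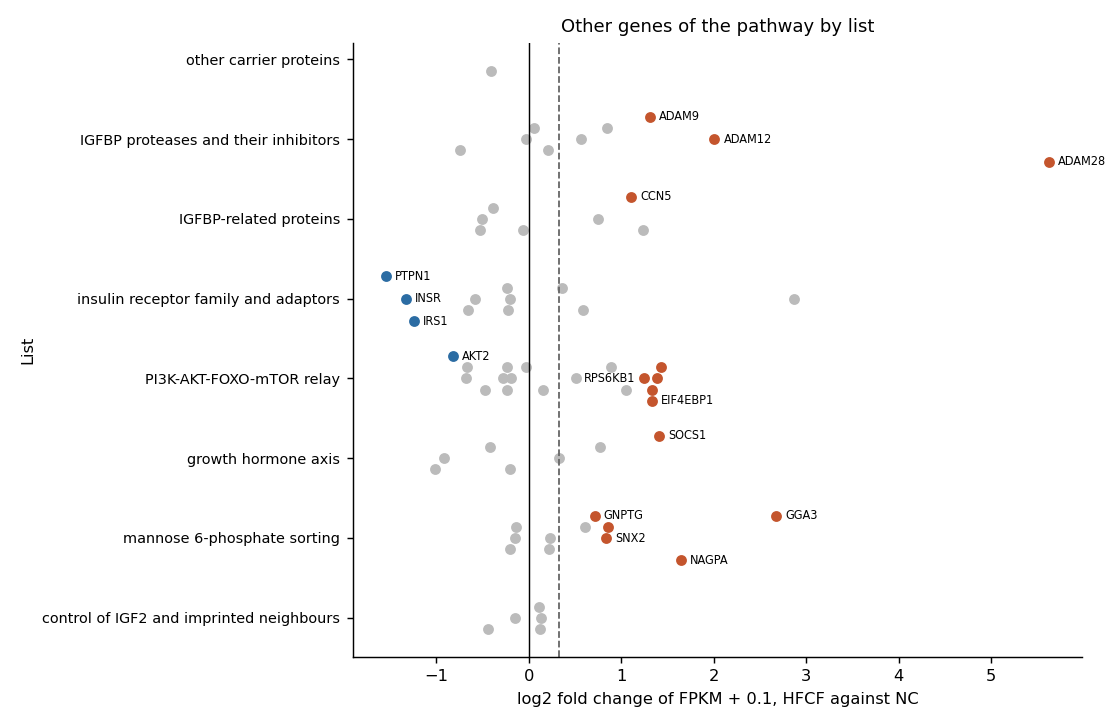
Log2 fold change of FPKM + 0.1 between HFCF and NC (x axis) for the 69 tested genes of 8 pathway lists (y axis), with called genes in orange (higher) or blue (lower), at most 4 names per list, and a dashed line at the median of all tested genes. Calls are lower in the insulin receptor family list (3 of 11) and higher in mannose 6-phosphate sorting (5 of 11) and the proteases (3 of 9), beside 28.9% called among all tested genes.

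Calls on the remaining lists came to 14.3% (growth hormone axis), 14.3% (IGFBP-related proteins) and 0% (control of IGF2), against 28.9% of all tested genes. These lists hold 5 to 7 tested genes each, too few to show a difference from that share. Of the 7 growth hormone axis genes tested, SOCS1, an inhibitor of JAK kinases, rose from 0.343 ± 0.0969 to 1.07 ± 0.219 FPKM (adjusted p = 0.0167, limma), a call lost without the second NC pig (0.0559) and without the second HFCF pig (0.0534). The growth hormone receptor GHR had 2.44 to 3.85 FPKM in the NC pigs and 3.46 to 4.54 FPKM in the HFCF pigs (adjusted p = 0.33, limma). Of the 7 tested IGFBP-related proteins, CCN5 was called (log2 fold change 1.11, adjusted p = 0.0389, limma), a call lost in 10 of 16 alternatives, among them those without the first or second NC pig or without the second or the third HFCF pig (adjusted p from 0.0601 to 0.132, limma). IGFALS, the acid-labile subunit of circulating IGF complexes, did not pass the test (adjusted p = 0.322, limma), and IGFBP1 was at 0 in 5 of the 6 libraries. Of 5 tested genes that control IGF2 or lie in imprinted regions, 0 were called by limma, and 0 had an unadjusted p under 0.05.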

How the data were processed

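Total RNA of the abdominal aorta was sequenced, 1 library per pig (3 NC, 3 HFCF). The authors deposited FPKM values made from paired-end reads trimmed with cutadapt 1.9, aligned with HISAT2 and quantified with StringTie. FPKM is relative within a library, so a few abundant genes can shift all others. Values of at most 0.0001 were read as 0. Read totals per library are not given in the sources used here, and the number of pigs limits the precision. The methods name an earlier genome build than the annotation used for names, so coordinates are left out. Symbols of unnamed rows were taken from a table of identifiers (771 rows) or the NCBI gene number in the description (556 rows).

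Genes of mean FPKM 0.1 or more were fitted as log2(FPKM + 0.1) with limma 3.58.1 in R 4.3.3 (diet alone, trended eBayes) and adjusted over 15384 genes. A gene was called at an adjusted p under 0.05. Ratios were tested by exact permutation. The fit was tested on simulated data. Alternatives were pseudocounts of 1 and 0.01, no filter, a mean FPKM of at least 1, 3 scalings, eBayes without a trend or robust, a block by replicate number and each pig left out. The genes and lists were chosen with earlier results of these data known. All 9 genes were named, and of each pathway list at most 4 called genes with the smallest adjusted p (some genes that the rules select are not reported here); genes without a call were added after their values were seen. Sums and shares of binding proteins are over the 5 analysed.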

Additional observations from a re-analysis of the deposited data

How the results depend on the processing

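IGF1R kept its direction and its call in all 16 alternatives (log2 fold change from -1.49 to -0.95, adjusted p from 0.00452 to 0.0381, limma), and IGF2 and IGF2R kept their direction without a call. The log2 fold change of IGF1 stayed positive but lost its call in limma with pseudocount 1 (0.76, adjusted p = 0.0659), no filter (1.60, 0.0861), rescaling to TPM (1.53, 0.0755), median-ratio scaling (1.29, 0.0905), quantile normalization (0.99, 0.157), untrended eBayes (1.60, 0.0529), robust eBayes (1.60, 0.0505) and the replicate block (1.60, 0.0883). It ranged from 1.17 to 2.03 with each pig left out, and at a mean FPKM of at least 1 IGF1 was not tested. With each pig left out the log2 fold change ranged from 0.13 to 0.75 for IGFBP2, -0.0804 to 0.14 for IGFBP4, -0.16 to 0.99 for IGFBP5 and 0.47 to 1.19 for IGFBP6. IGFBP7 was -0.0685 with median-ratio scaling and -0.11 with quantile normalization. The cause of these changes was not tested.

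Of the 9 genes, 1 was called in place of 2 with pseudocount 1, no filter, a mean FPKM of at least 1, each of the 3 scalings, eBayes without a trend, robust eBayes and the replicate block, and 1 to 2 with each pig left out. By fold and p, 1 gene was called with a mean FPKM of at least 1 and with quantile normalization, and 1 to 3 with each pig left out. IGFBP-related calls went to 0 with no filter, without a trend and with the block (0 to 1 with each pig left out). Relay calls rose to 10 of 18 with median-ratio scaling, against 4000 of all 15384 tested genes. Growth hormone axis calls were 0 with a mean FPKM of at least 1 and with quantile normalization, 2 with median-ratio scaling and without a trend, and 0 to 1 with each pig left out. Mannose 6-phosphate sorting calls were 3 with quantile normalization, 2 after rescaling to TPM, 3 with the block and 3 to 4 with each pig left out. All tested genes together also gave fewer calls in each of these settings than in the main fit.

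The difference in shares of the summed binding protein FPKM, in percentage points, ranged from -0.433 to 2.96 for IGFBP2, from -3.19 to 4.91 for IGFBP5 and from -8.31 to 0.528 for IGFBP7 with each pig left out, and was -0.638 for IGFBP5 between group medians. The other ratios and shares kept their direction in all 7 alternatives.

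Over all genes, 4453 calls (3505 higher, 948 lower) became 4000 (2032 higher, 1968 lower) with median-ratio scaling, 3530 (1748 higher, 1782 lower) with quantile normalization and 3756 (2229 higher, 1527 lower) after rescaling to TPM. These scalings moved the median log2 fold change from 0.32 to -0.0031, -0.075 and 0.09. Leaving out the first NC pig gave 2399 calls, the second NC pig 2879 and the second HFCF pig 2936. The replicate block gave 2772 calls. The numbers do not pair the pigs: deviations of same-numbered libraries from their group means correlated at 0.02, -0.08 and -0.07 across genes, and 0 of the 6 libraries correlated best with its own number.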

Other observations

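The genes whose log2(FPKM + 0.1) followed IGF1R most closely over the 6 pigs were PHLPP1, a phosphatase that acts on AKT (Pearson r = 0.990), HERPUD1 (r = 0.990) and THBD, the endothelial receptor of thrombin (r = 0.989). PHLPP1 had 2.09 to 2.57 FPKM in the NC pigs and 1.56 to 1.85 FPKM in the HFCF pigs, and THBD had 9.22 to 18.1 FPKM and 3.05 to 4.82 FPKM. IGF2 was followed most closely by ADGRD1 (r = 0.992) and, among others, by NID1, a basement membrane linker (r = 0.984). NID1 had 19.6, 22.6 and 8.68 FPKM in the NC pigs and 9.41, 6.95 and 15.8 FPKM in the HFCF pigs, the order of IGF2 in both groups. IGF1 was followed by USP34 (r = 0.999), PSME1 (r = 0.997) and C21orf91 (r = 0.993). Of 9570 genes compared with IGF1, 407 had an r over 0.9, against 59 for IGF2. These values describe 6 libraries in which the groups differ, so a shared group difference can by itself raise r.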
